A study of Mus musculus with 9 samples.

Results

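The response of CTCF binding to cytokine culture was compared between wild-type (WT) mouse CD8+ T cells and CD8+ T cells that lack Tcf1 and Lef1 (DKO). The comparison covered the 23839 autosomal regions that had a CTCF peak in all 4 lists of naive cells, out of 38586 regions obtained by merging the peaks of 8 libraries on chromosomes 1 to 19. Binding was mapped by CUT&RUN, in which an antibody to the protein guides a nuclease that cuts out the DNA it binds. Naive cells (GFP+ TCRbeta+ CD62Lhi CD44lo-med CD8+) were sorted from spleen and profiled at 0 h, or as live cells once cultured with IL-7 and IL-15 for 72 h, here called cultured cells. The 4 groups were naive and cultured WT and naive and cultured DKO cells, with 2 CTCF libraries each. WT and DKO animals alike carried the hCD2-Cre transgene, which drives recombination in T-lineage cells, and a Rosa26-lsl-GFP reporter, and only the DKO animals had both Tcf1 and Lef1 alleles floxed. Recombined cells are thus selected by GFP, and a group at 72 h holds the cells that survived culture. Nothing in the labels says that the replicates are separate animals, so p-values measure the spread between these libraries only, which may be technical. The age and sex of the animals were not given in the labels used here.

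CTCF is a zinc-finger protein that binds a long DNA motif at insulators and promoters and halts cohesin, so that pairs of bound sites become the anchors of chromatin loops. Tcf1 (gene Tcf7) and Lef1 are related HMG-box factors that keep T cell identity and the naive and memory state of CD8+ T cells. IL-7 and IL-15 sustain the survival and homeostatic division of CD8+ T cells without antigen. The comparison asks whether the change of CTCF binding in culture differs without Tcf1 and Lef1, which is the difference between the DKO change and the WT change. Coordinates are those of mm9, and neither genes nor sequences are given because an annotation and a genome of that build were not used here.

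Peaks had been called per library, and the lists differed in length. The 4 naive lists held 30309 to 32587 peaks. Cultured WT cells had 17335 and 26630 peaks and DKO cells 10339 and 16234. The authors' median fold enrichment on the autosomes was 9.78 to 10.4 in the naive lists, against 7.89 and 9.06 for cultured WT and 7.03 and 8.05 for cultured DKO cells. The sources used here give no read depth. List length and median fold were thus lower at 72 h than at 0 h in every library and were lowest in the first DKO library at 72 h, and their part in the results below was not tested unless a value is given. No region overlapped a peak of the IgG control of naive WT cells, whose list held 5 peaks.

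Naive-shared regions were found again at 72 h more often in the WT lists than in the DKO lists, in the order of list length. WT replicate 1 had a peak at 65.2% of the 23839 regions (95% Clopper-Pearson interval 64.6 to 65.9%, counting error only) and WT replicate 2 at 86.9% (86.5 to 87.4%). DKO replicate 1 had a peak at 40.9% (40.2 to 41.5%) and DKO replicate 2 at 62.7% (62.1 to 63.4%). The highest DKO library thus lay just under the lowest WT library. The mean share was 76.1% in WT and 51.8% in DKO, a difference of -24.3 percentage points (exact two-sided permutation test, n = 2 against 2, p = 0.3333, the smallest this design allows). Leaving out cultured DKO replicate 1 gave -13.3 points and leaving out replicate 2 gave -35.2. At the 3554 regions with a peak in 3 of the 4 naive lists, which just miss the criterion, the shares at 72 h were 11.1 and 42.2% in WT and 1.01 and 6.22% in DKO.

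The pair of 72 h libraries nearest in length, WT replicate 1 and DKO replicate 2, was alike in the share of regions kept. WT replicate 1 had 15554 of the regions and DKO replicate 2 had 14958, a difference of -2.50 percentage points. Both lists shared 13507 of them, 2047 were in the WT list alone, 1451 in the DKO list alone and 6834 in neither. With the WT list cut to the 16234 peaks of the DKO list by the authors' p-value, WT held 61.9% and DKO 62.7%, and 1609 regions were in WT alone against 1801 in DKO alone. Equal length brings these shares and counts close to each other by construction. One library a genotype gives no test.

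Regions missing from the 72 h lists were mostly the weak sites of naive cells in both genotypes. Members were ordered by their mean percentile rank of fold enrichment in the 4 naive lists and split into deciles. In the weakest decile, 9.69 and 45.7% had a peak in the WT libraries at 72 h and 1.17 and 7.51% in the DKO libraries. In the fifth decile these shares were 66.5 and 93.9% in WT and 19.9 and 63.4% in DKO. In the strongest decile they were 99.8 and 99.96% in WT and 98.7 and 99.9% in DKO. The DKO replicate 2 curve ran close under that of WT replicate 1 in every decile but the last 2, where it was level with it, and replicates of 1 genotype lay further apart than this.

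**Figure D1:**
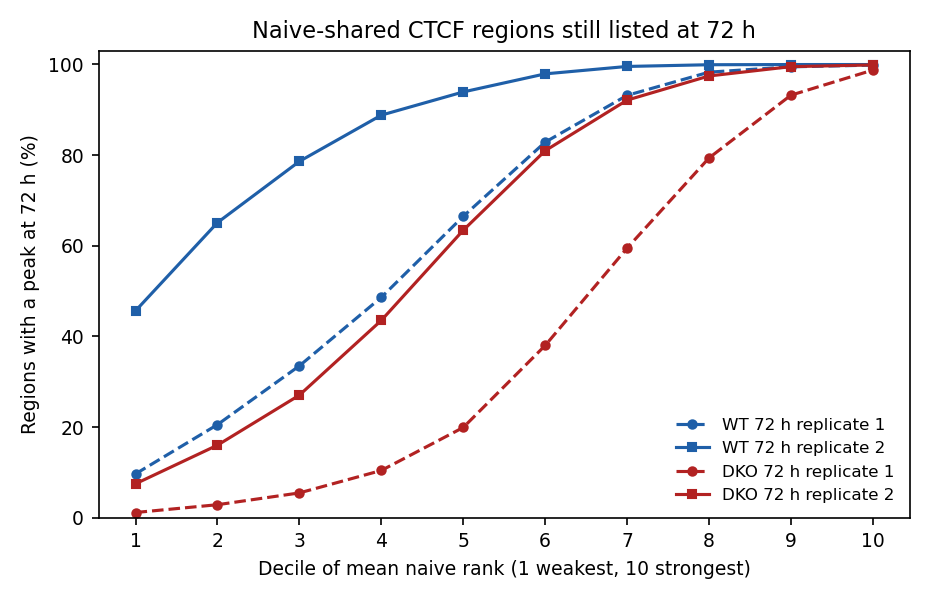
Share of the naive-shared regions with a CTCF peak at 72 h (vertical axis, %), by decile of mean naive rank (horizontal axis, 1 weakest to 10 strongest), with 1 line per 72 h library. WT replicate 1 and DKO replicate 2 lie close together, from 9.69 and 7.51% in the weakest decile to 99.8 and 99.9% in the strongest.

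Seen by genotype, 9363 of the 23839 regions (39.3%) had a peak in all 4 lists at 72 h, with a median naive rank of 83.0 on a scale where 100 is the strongest peak, and 2894 (12.1%) had none, with a median naive rank of 26.2. A peak in both WT lists and neither DKO list was found at 1813 regions (7.61% of the regions), with a median naive rank of 45.7. The reverse was found at 4 regions (0.0168%), which were looked up after their count was seen. They are chr2:118380074-118380677, chr7:31945865-31946571, chr7:50720678-50722381 and chr17:46296739-46298311. At the first, the authors' fold was 7.95 and 11.7 in naive WT and 17.8 and 11.9 in naive DKO cells, and 5.71 and 8.22 in cultured DKO cells. Fold at the other 3 was 4.76 to 11.6 in naive WT and 4.08 to 8.75 in cultured DKO cells. When every list was cut to its 10339 strongest peaks by the authors' p-value, which is the length of the shortest list, 378 regions were WT-only (1.59%) and 398 were DKO-only (1.67%). Lists of equal length hold nearly the same number of the regions, 9744 to 9865 at 72 h, so near equality of these counts is set by the cut and is no result about the genotypes.

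The change of each region was then taken as its percentile rank of fold at 72 h minus that at 0 h, with an absent peak at rank 0 and the mean of both libraries used for each group. With the full lists, the mean rank over the regions was 59.7 and 57.7 in naive WT and 57.6 and 58.9 in naive DKO cells, and 33.9 and 48.9 in cultured WT and 20.7 and 32.1 in cultured DKO cells. The naive libraries lay within a few points of each other and all 72 h libraries lay below them, with WT replicate 1 and DKO replicate 2 side by side. The mean change was -17.3 points in WT and -31.9 in DKO, a difference of -14.6 points (exact two-sided permutation test over 36 assignments of genotype within time, n = 4 against 4, p = 0.3333, where the smallest possible p is 0.0556). The median difference over regions was -13.1 points, with quartiles at -25.8 and -2.69, and 81.5% of the regions had a lower change in DKO. Leaving out cultured WT replicate 2 gave -5.63, and leaving out its replicate 1 gave -20.7.

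Cutting the lists to equal length took this difference away. With 10339 peaks per list the median change was 0 in WT and in DKO, and the median difference was 0, with quartiles at -2.75 and 2.49. The change was lower in DKO at 7208 regions (30.2%), higher at 7163 (30.0%), and identical at 9468 (39.7%), all of them absent from every cut list. A difference of 20 points or more was found in 1901 regions on the lower side (7.97%) and in 1928 on the higher side (8.09%). Cut lists hold the same number of peaks, so a loss common to all regions cannot be seen in them, and only a reshuffling of regions can. The last peak kept had a −log10 p of 31.7 to 38.1 in the naive lists, against 11.6 and 22.1 for cultured WT and 4.24 and 10.998 for cultured DKO cells. In bulk samples such as these, fewer cells with a bound site and less CTCF per cell cannot be told apart.

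**Figure D2:**
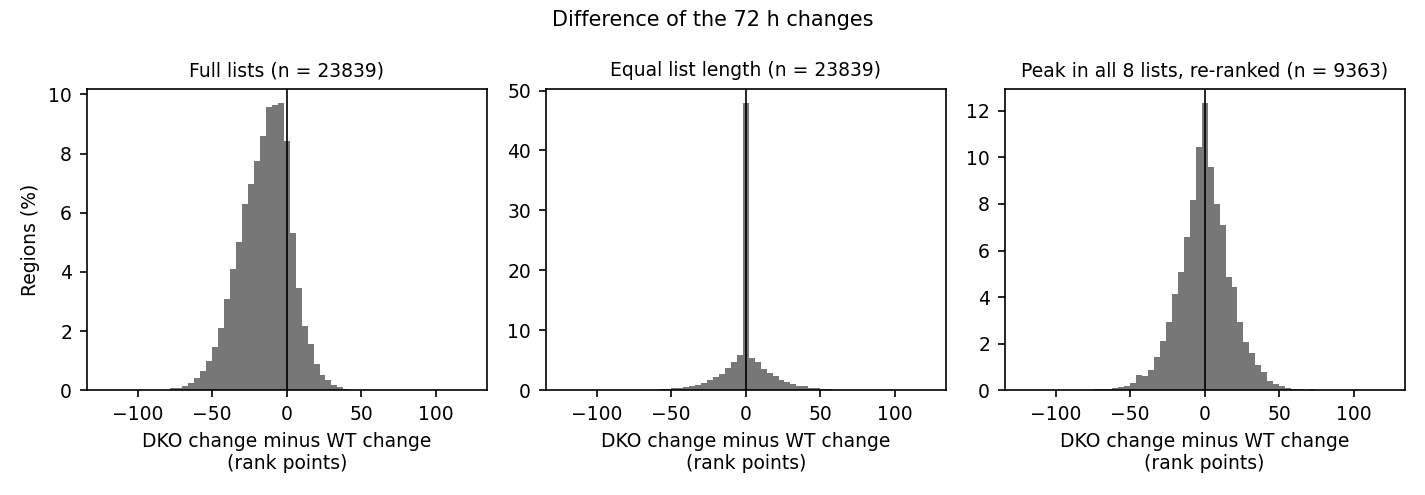
Share of regions (vertical axis, %) by the DKO change minus the WT change in rank points (horizontal axis, 4 points per bar) for full lists, lists of equal length, and the 9363 regions with a peak in all 8 lists re-ranked among themselves. The median is -13.1 with full lists, 0 at equal length and 0.0774 after re-ranking.

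A ranking without absent peaks was made from the 9363 regions with a peak in all 8 lists, which were ranked among themselves in every library. List length and the change itself still decide which regions enter: the 1813 WT-only regions are left out, and 13472 regions enter when the shortest list is not required. The ranking sets the mean change to 0 in both genotypes by construction. The difference of changes had quartiles at -10.2 and 10.6 points. It was 20 points or more below 0 at 1084 regions (11.6%) and 20 or more above 0 at 1115 (11.9%). The median size of the difference was 10.4 points. Between the 2 libraries of 1 group the median difference was 6.88 points in naive WT and 7.68 in naive DKO cells. It was 9.54 in cultured WT and 10.9 in cultured DKO cells. These are unlike measures, since the first combines the means of all 4 groups and the others compare single libraries.

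No region passed the test of a genotype difference in the response in any of the 3 rankings. The interaction of genotype and time was fitted with limma over all regions and adjusted by the Benjamini-Hochberg method. Of the re-ranked regions, 0 of 9363 had an adjusted p under 0.05 (0% in each direction), 765 (8.17%) had an unadjusted p under 0.05, 392 lower and 373 higher in DKO, and the lowest adjusted p was 0.148. With full lists it was 0 of 23839, with 2989 (12.5%) at an unadjusted p under 0.05, of which 2807 were lower in DKO. At equal length it was 0 of 14371 regions with a peak in a cut list, with 1323 (9.21%) unadjusted, 670 lower and 653 higher, and a lowest adjusted p of 0.0534. The 95% interval of a single region's difference reached a median of 30.5 points to either side after re-ranking. An adjusted p under 0.05 asks for more than an interval that leaves out 0, so the test was insensitive to differences of this size.

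The 0 at equal length depended on the libraries. It became 195 lower and 515 higher regions when cultured DKO replicate 2 was left out, and 86 and 260 when its replicate 1 was. Leaving out cultured WT replicate 2 gave 169 and 57, and its replicate 1 gave 74 and 14. Leaving out naive DKO replicate 2 gave 102 and 27, and its replicate 1 gave 63 and 14. Leaving out either naive WT library gave 0 and 0. So did leaving out cultured DKO replicate 1 with the lists cut to the shortest of the remaining 7, with a lowest adjusted p of 0.0881. The lone library of a group is then assumed to vary like the other groups. With 1 library left out, the fits at equal length tested 13840 to 14297 regions. The fit with lists cut to the shortest of the remaining 7 tested 19816. The fit with full lists and without cultured DKO replicate 2 tested 23839. With full lists, 968 lower and 4 higher regions were called without cultured DKO replicate 2. Among re-ranked regions, leaving out any single library gave 0 calls in both directions, with lowest adjusted p-values of 0.218 to 0.751, which with a test this insensitive says nothing of stability.

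The changes in WT and in DKO cells resembled each other nearly as much as replicate changes of 1 genotype did. Over the 9363 re-ranked regions, the change from the WT libraries numbered 1 correlated with that from the WT libraries numbered 2 at a Pearson r of 0.360, and the corresponding value within DKO was 0.352. Between genotypes the 4 combinations gave 0.301, 0.305, 0.305 and 0.317. None of these pairs of changes has a library in common, and all share the same regions and their strength at 0 h. The correlation between genotypes was therefore only a little below that within a genotype. The WT and DKO changes averaged over libraries correlated at 0.453 and had the same sign at 65.3% of the regions. The difference of changes itself, taken once from the libraries numbered 1 and once from those numbered 2, correlated at 0.0677 and had the same sign at 53.2%. At equal list length over all members, the values were 0.361 within WT, 0.338 within DKO, 0.276 to 0.301 between genotypes and 0.0867 for the difference of changes. These are descriptions across regions, which are not independent replicates. A difference of changes carries the spread of both changes, so its correlation is not directly comparable with that of a single change.

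**Figure D3:**
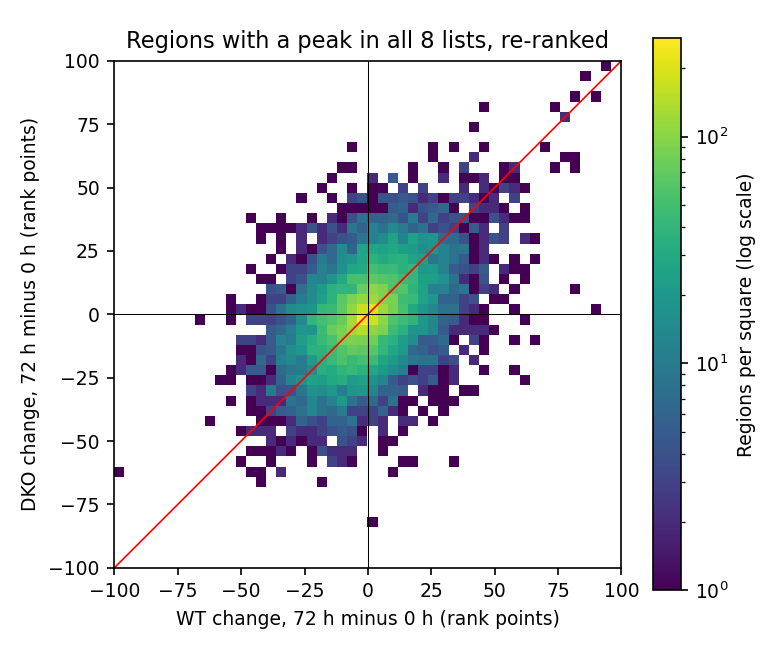
Change in DKO (vertical axis) against change in WT (horizontal axis), 72 h minus 0 h in rank points, for the 9363 regions with a peak in all 8 lists. Colour gives regions per square on a log scale and the red line marks equal change. The cloud follows the line, with a Pearson r of 0.453, and spreads evenly to either side of it.

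The genotype gap within each time was weakly related between the times. The DKO minus WT rank had an SD over regions of 12.4 points at 0 h and 14.6 at 72 h, and the gaps at both times correlated at 0.137. Each 72 h library was next set against the mean of the naive libraries of its genotype, which gave 2 changes per genotype. Regions where both DKO changes lay below both WT changes numbered 2142 of 9363 (22.9%), and 2164 (23.1%) had both above. At equal list length over all members these counts were 3762 (15.8%) and 3404 (14.3%), and with full lists 11653 (48.9%) and 2126 (8.92%). With changes taken between same-numbered libraries, the counts at equal length were 2381 below and 2234 above. Without cultured DKO replicate 2 they were 5342 and 5510, and without cultured DKO replicate 1 they were 5260 and 5174. In these last settings 1 DKO change is set against 2 WT changes. Such changes separate more easily, so the counts are not comparable with those of 2 against 2. The split between the directions moved from strongly lower in DKO to nearly even once list length was equal, which the equal lengths favour by construction. A separation of 2 changes from 2 others can also arise from the spread between libraries alone. Except with same-numbered libraries, both changes of a genotype share its naive mean. The counts are therefore descriptions without a test.

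Among the re-ranked regions with both DKO changes lower, the median rank was 43.7 in naive WT and 55.5 in naive DKO cells, and 56.4 in cultured WT and 38.2 in cultured DKO cells. In the opposite set it was 54.2 and 43.1 at 0 h, and 42.1 and 58.2 at 72 h. In these medians the genotype gap had opposite signs at the 2 times, but a gap of 10 points or more at both times with opposite signs was found at 294 regions of the first set (13.7%) and 283 of the second (13.1%). By their mean values, 49.5% of the first set had a positive WT and a negative DKO change, and 51.8% of the second set had the reverse. A gap of 20 points or more at 72 h with under 10 points at 0 h was found at 315 regions of the first set (14.7%) and 337 of the second (15.6%). A gap of 20 or more at 0 h with under 10 at 72 h was found at 158 (7.38%) and 180 (8.32%), so that naive cells differed and cultured cells were alike there. How often such gaps occur over all re-ranked regions was not counted, so these shares cannot show an excess in either set. These limits were chosen after the values were seen. They describe regions already selected for the difference, and the gap at 0 h enters the difference with the opposite sign by construction.

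The regions that differed most were taken in each direction at equal list length, 10 lower (L1 to L10) and 10 higher in DKO (H1 to H10). Their adjusted p-values from limma at equal length ran from 0.0534 to 0.575, so none passed, and their values are descriptions. The 5 most extreme regions in each direction after re-ranking were all among these 20.

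Among the lower regions with a peak in all 8 lists, replicates were closest at L6, chr8:87497885-87501674. It was 3790 bp wide, against a median of 900 bp over all naive-shared regions. The authors' fold there was 7.97 and 7.75 in naive WT and 43.4 and 41.6 in naive DKO cells, and 20.6 and 25.03 in cultured WT and 12.8 and 17.9 in cultured DKO cells. Its re-ranked percentile was 1.09 and 1.35 in naive WT and 92.6 and 89.9 in naive DKO cells, and 95.8 and 86.8 in cultured WT and 93.7 and 92.8 in cultured DKO cells. Among the re-ranked regions, both naive WT libraries were among the weakest ranks, and all other libraries were among the strongest. By this rank, WT cells at 72 h stood where DKO cells stood already at 0 h, but their fold was lower. With full lists the naive WT ranks were 37.3 and 36.9. At L6 the changes differed by -88.1 points (95% interval -106 to -70.7, limma, adjusted p = 0.148). Region chr2:25281739-25283151, chosen after its values were seen because limma with a mean-dependent spread called it alone (adjusted p = 0.0377, against 0.296 without), had the same form. Its ranks were 49.3 and 55.2 in naive WT and 99.6 and 99.4 in naive DKO cells, and 97.6 to 99.7 in all 4 libraries at 72 h.

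Region L1, chr3:127025227-127026501, and region L3, chr1:62921373-62923015, were also strong in naive DKO cells. At L1 fold was 10.9 and 7.89 in naive WT and 32.0 and 44.2 in naive DKO cells, and 10.4 and 15.4 in cultured WT and absent and 9.25 in cultured DKO cells. At L3 it was 12.4 and 11.2 in naive WT and 30.3 and 36.8 in naive DKO cells, and 8.26 and 11.9 in cultured WT and absent and 6.89 in cultured DKO cells. In both, the naive DKO libraries were well above the naive WT libraries, and both cultured DKO libraries were below both cultured WT libraries. At equal length the changes differed by -115 points at L1 and -94.5 at L3.

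At L8 and L2 the genotypes differed mainly at 72 h. At L8, chr11:115947821-115949416, fold was 36.3 and 20.5 in naive WT and 35.0 and 44.7 in naive DKO cells, against 12.5 or more in both cultured WT and 4.15 and 6.18 in the cultured DKO libraries. The re-ranked percentile of L8 in DKO was 82.9 and 92.4 at 0 h and 0.972 and 8.76 at 72 h, while WT had 86.1 and 48.1 at 0 h and 69.1 and 66.7 at 72 h. At L2, chr8:72662973-72663969, the rank was 20.5 and 22.9 in naive WT and 61.1 and 17.1 in naive DKO cells, and 80.7 and 88.3 in cultured WT and 8.46 and 15.3 in cultured DKO cells. At both regions the 72 h libraries separated by genotype without overlap, while the replicates of 1 naive group stood apart, WT at L8 and DKO at L2. L4 (chr6:3348740-3350314), L7 (chr17:35620235-35621530) and L10 (chr19:46943758-46944820) had a larger fold in 1 naive DKO library (27.2, 27.0 and 23.4) than in the other (13.4, 16.1 and 11.8). L5 (chr14:51682733-51685209) differed at both times, with naive ranks of 5.81 and 70.2 in WT and 96.3 and 89.0 in DKO, and 72 h ranks of 81.0 and 64.6 in WT and 8.10 and 61.7 in DKO. For L9, chr2:158689462-158690232, the time of the difference depended on the ranking. At equal length the cut set both naive WT peaks to rank 0, while the naive DKO ranks were 70.4 and 58.9. The cultured ranks were then 52.1 and 37.7 (WT) and 0 and 48.3 (DKO). With full lists the naive genotypes were closer (WT 76.1 and 71.2, DKO 89.8 and 86.3). The larger full-list gap lay at 72 h (WT 71.3 and 75.7, DKO 0 and 67.0), through the absent peak of DKO replicate 1.

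The higher regions were led by H1, chr4:117965294-117966177. Fold was 23.1 and 20.4 in naive WT and 13.3 and 15.9 in naive DKO cells, and 5.01 and 7.93 in cultured WT and 7.03 and 11.2 in cultured DKO cells. The re-ranked percentile was 51.8 and 47.6 in naive WT and 11.6 and 17.7 in naive DKO cells, and 2.39 and 3.75 in cultured WT and 47.2 and 60.4 in cultured DKO cells. The genotypes thus had opposite orders at the 2 times, with no overlap at either. At H1 the changes differed by 85.8 points after re-ranking (95% interval 64.7 to 107, limma, adjusted p = 0.204).

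H9, chr9:51143148-51144037, differed mainly through a low rank in naive DKO cells. Its rank was 62.9 and 63.4 in naive WT and 6.95 and 7.04 in naive DKO cells, and 53.8 and 50.6 in cultured WT and 71.7 and 62.0 in cultured DKO cells. These re-ranked WT values stayed between 50.6 and 63.4, and both cultured DKO libraries were above both cultured WT libraries. With full lists the genotypes overlapped at 72 h (WT ranks 72.6 and 80.7, DKO ranks 73.4 and 76.6). The authors' fold at 72 h overlapped too (WT 10.6 and 16.0, DKO 8.99 and 11.4). After re-ranking, the changes at H9 differed by 70.8 points (95% interval 52.9 to 88.6, limma, adjusted p = 0.204). At H2, chr13:52370758-52371496, the rank was 51.2 and 49.9 in naive WT and 27.2 and 24.9 in naive DKO cells, and 11.8 and 9.35 in cultured WT and 57.1 and 38.0 in cultured DKO cells, again with opposite orders at the 2 times.

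The other higher regions were H3 (chr6:103244869-103246716), H4 (chr2:103822125-103822986), H5 (chr15:59707418-59708353), H6 (chr2:162823939-162824774), H7 (chr5:28714571-28715437), H8 (chr5:90108935-90109858) and H10 (chr1:95403308-95404350). Their re-ranked difference of changes ran from 55.2 to 78.0 points. At H3, H8 and H10 the replicates of 1 group or more lay far apart, as at H10, where WT had 4.98 and 66.5 at 72 h. The authors' fold at all 10 higher regions was smaller in every cultured library than in every naive library of the same genotype, so a higher rank in DKO there is not a larger fold than in naive cells.

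**Figure D4:**
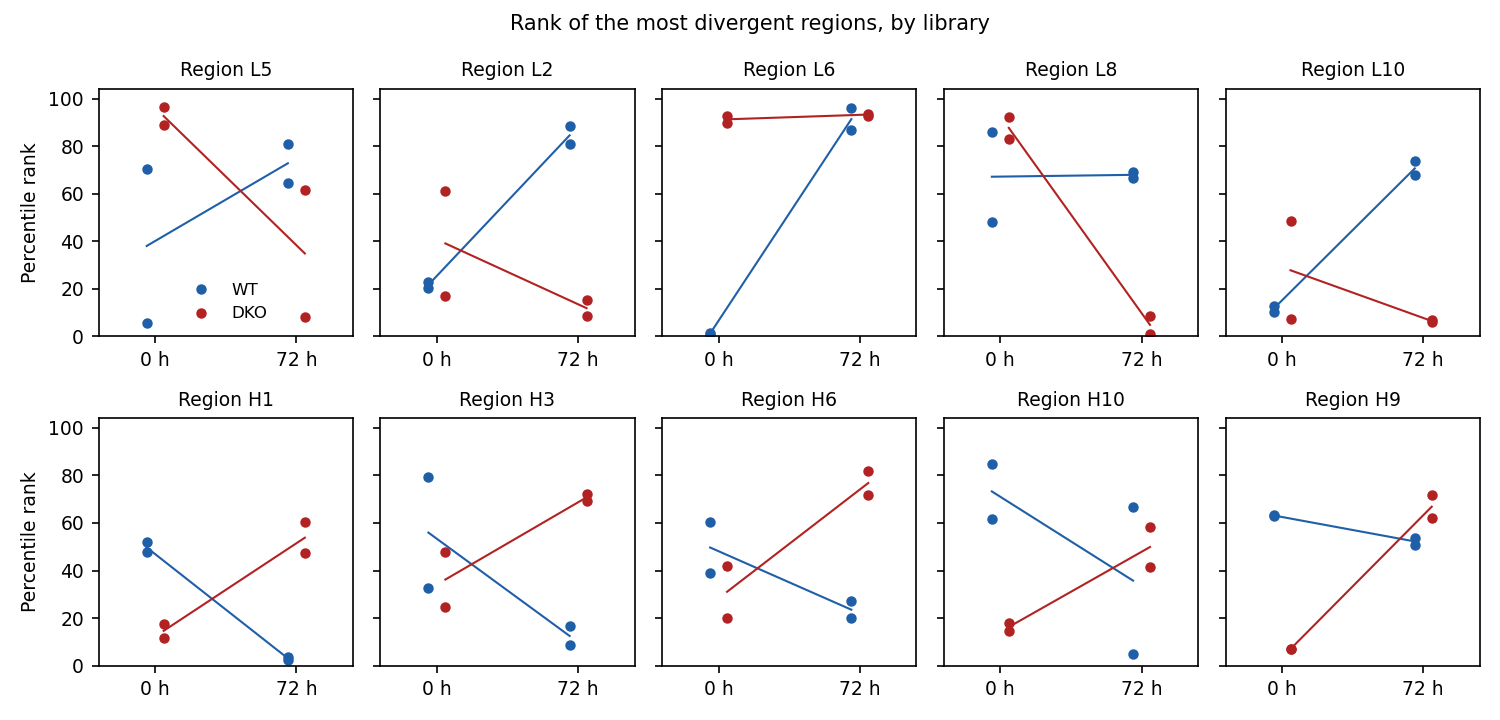
Percentile rank (vertical axis, 100 strongest) at 0 h and 72 h (horizontal axis) of the 5 most extreme regions in each direction after re-ranking, with 1 point per library, WT in blue and DKO in red, and lines joining group means. L6 and H9 have close replicates, while replicates of 1 group or more lie far apart at L5 and H10.

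The difference of changes took similar values on all 19 chromosomes. By chromosome, the median with full lists ran from -15.3 on chromosome 12 to -11.8 on chromosome 10, and after re-ranking from -1.04 on chromosome 3 to 1.05 on chromosome 7. The share of re-ranked regions with both DKO changes lower was 20.3% on chromosome 18 to 24.8% on chromosome 14, beside 22.9% over all. The share with a peak in all 8 lists was 36.6% on chromosome 5 to 42.4% on chromosome 18.

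Closely spaced and isolated regions were compared without a test. Regions with a neighbour within 5 kb, 7425 in number, had a median difference of -13.3 points with full lists and -0.732 after re-ranking, and the 3343 regions whose nearest neighbour was 50 kb or more away had -13.6 and 1.38. Both DKO changes were lower at 24.7% of the closely spaced and 20.4% of the isolated re-ranked regions, and higher at 22.7 and 24.8%. At equal list length they were lower at 17.7% of the regions with a neighbour within 5 kb and at 15.7, 15.3 and 12.4% with growing distance, and higher at 13.9 to 14.53%. Neighbouring re-ranked regions under 5 kb apart (742 pairs) correlated at 0.0645 in the WT change, 0.109 in the DKO change and -0.000623 in the difference of changes. In pairs 5 to 20 kb apart (1266 pairs) these values were 0.0765, 0.0594 and 0.0428. The difference of changes of the same region correlated at only 0.0677 between the libraries numbered 1 and 2. Values this low between neighbours therefore cannot show whether the differences of adjacent sites are related.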

How the data were processed

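CTCF peak lists of 8 libraries (4 groups of 2) and 1 IgG list were used. Peaks are in mm9 coordinates, and the tools named are Bowtie2 2.2.5, MACS2 2.1.1 and FastQC, per the submitters' processing notes. The sources used here do not give the peak caller's control or cut-offs. The authors' deposited fold enrichment (a ratio over local background) and −log10 p and q values served only to rank, cut or filter peaks within a list, and the deposited summit offsets served to merge by summit. Peaks on chromosomes 1 to 19 that overlapped by 1 bp were merged, and the best peak of a region gave its fold and rank. Percentile ranks (100 highest) were computed within each list, ties taking the mean rank, for full lists, for the top 10339 peaks by −log10 p (taken before chromosomes were chosen), and among the 9363 regions found in all 8 lists.

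The interaction was fitted with limma 3.58.1 (R 4.3.3) without a replicate block and tried on simulated data. These had 200 changes planted among 9363 regions, with the same spread for every region. It recovered 0 of the changes of 20 points, 13 (6.5%) of 40 points and 104 (52%) of 60 points. Values per library were compared by exact permutation. Members and lists were chosen with earlier results of these data known. Regions were named by size of the difference at equal length (10 per direction, DKO and WT changes not overlapping, same sign with full lists) and after re-ranking (5 per direction). The planned gene lists and motif search needed an annotation and genome of mm9, not used here. Intervals of shares cover counting error only. Alternatives were ranks by −log10 p, −log10 q of at least 5, summits within 100 bp, chromosome X added, lists cut per time, each library left out, normal scores, a mean-dependent spread (trend), and a replicate block. Same-numbered libraries deviated together at a correlation of only 0.0112 to 0.0318, so the numbers were not taken as pairs.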

Additional observations from a re-analysis of the deposited data

Results flagged for a closer look

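At the regions below, both WT libraries at 72 h lay on one side of the naive WT mean and both DKO libraries on the other side of the naive DKO mean. This holds in the ranking named for each value and not in every ranking. No group had the number of libraries needed for a test of single outlying samples. The difference was tested with limma and no region had an adjusted p under 0.05.

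At equal list length, the difference of changes (DKO minus WT, in rank points) was -115 at L1, -96.6 at L2, -94.5 at L3, -93.9 at L4, -92.0 at L5, -88.7 at L7, -85.4 at L9 and -83.7 at L10, where WT ranks were higher and DKO ranks lower than their naive means in lists cut to equal length. It was 99.4 at H1 and H2, 88.3 at H3, 86.4 at H4, 84.4 at H5, 84.1 at H6, 81.4 at H7, 81.1 at H8, 80.8 at H9 and 79.4 at H10, in the opposite sense. These sizes depend on the cut, which sets to rank 0 peaks that the full lists hold, as both naive WT peaks at L3 and L9 and both naive DKO peaks at H4. With full lists the differences were -95.4 (L4) to -54.5 (L9) and 16.3 (H5) to 54.6 (H1). They were 27.0 at H2, 33.3 at H6, 20.5 at H7 and 18.0 at H4. The full-list WT change was 1.64 at L3 and -0.105 at L9. The full-list DKO change was below 0 at H1 (-2.17), H2 (-13.3), H4 (-4.36) and H5 (-15.9). It was also below 0 at H7 (-3.75), H8 (-3.70) and H10 (-4.84), so both genotypes fell at these regions. Only at H3 (0.00712), H6 (6.76) and H9 (18.5) was it above 0.

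After re-ranking among regions with a peak in all 8 lists, it was -92.5 at L5, -90.1 at L2, -80.3 at L10, 85.8 at H1, 78.0 at H3, 71.9 at H6, 71.1 at H10 and 70.8 at H9. These regions were picked as the most extreme of many, and that choice favours opposite directions.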

How the results depend on the processing

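With full lists, the median difference of changes (-13.1) was -0.671 when lists were cut to the shortest of their time, -1.19 with only the 72 h pair of nearest length (chosen after seeing the data), and -20.7 to -5.63 with 1 library left out. The difference in the share kept (-24.3 points) was -2.50 in that pair and -35.2 to -13.3 with 1 library left out. The median at equal length (0) was 1.64 among regions with a peak in all 8 lists and 0 to 0 with 1 library left out.

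The counts of non-overlapping regions at equal length (3762 lower, 3404 higher) were 3631 to 5458 lower and 3391 to 5510 higher with 1 library left out, 6906 and 6688 in the nearest pair, and 7581 and 7420 without DKO 72 h replicate 1 at the length of the shortest remaining list. The nearest pair has 1 change per genotype, which cannot overlap, so every region whose changes differed was counted there. Leaving out a 72 h library likewise leaves 1 change for its genotype, and such changes separate more easily. The counts from these settings are therefore not comparable with the main counts and show no dependence on the processing. Taking changes between same-numbered libraries (replicate block) gave 2381 and 2234. The limma fits with the replicate block gave 0 calls in all 3 rankings.

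For the limma test at equal length (0 and 0), ranks by −log10 p gave 22 lower and 15 higher regions, a −log10 q of at least 5 gave 36 and 26, merging by summit gave 32 and 17, and the nearest pair gave 693 and 727, with the spread then taken from the naive libraries. With 1 library left out the counts ran from 0 to 195 lower and from 0 to 515 higher. With full lists, merging by summit gave 25 and 6, and leaving out 1 library gave 0 to 968 lower and 0 to 4 higher. Among re-ranked regions the count was 0 to 0 in both directions with 1 library left out, and 1 lower with a mean-dependent spread (added after seeing the data). The fits at equal length tested 14371 regions with ranks by −log10 p, 11262 with the q filter, 12876 with merging by summit and 13594 in the nearest pair. With full lists, merging by summit left 20115 regions to test. The cause of these shifts in the counts was not tested. The correlation of the difference of changes between libraries numbered 1 and 2 was 0.0576 to 0.0993 over ranks by −log10 p, the q filter, merging by summit and chromosome X. In the same settings the changes correlated at 0.286 to 0.378 between genotypes and at 0.334 to 0.437 within a genotype. A difference of changes carries the spread of both changes, so its correlation is not directly comparable with these. In all, 130 of the recomputed values moved by no more than 1 SD between replicates (6.74 rank points with full lists, 0.0635 at equal length, 15.4 percentage points for the share kept) or, for counts, by no more than 1.5 times, and 39 moved further. With an SD this wide, a share difference of -13.3 in place of -24.3 is among the 130. Depth was not given, and 2 libraries per group limit what a single region can show.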
